A study of Arabidopsis thaliana with 15 samples.

Results

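The comparison set ref4-3 against ref4-1, a pair of point-mutant alleles of MED5B (AT2G48110), which encodes a subunit of Mediator, and asked where rosettes with the stronger and the weaker allele differ in their transcripts. It contrasted 6 of the 15 libraries of the study, 3 from ref4-3 and 3 from ref4-1. They were chosen by their column names in the deposited count table. The spread behind the p-values was estimated from all 15 libraries. The study sequenced polyadenylated RNA from Arabidopsis thaliana rosettes of 5 genotypes with 3 libraries each. These were ref4-3, ref4-1, the CDK8 mutant cdk8-1, the double mutant ref4-3 cdk8-1 and the wild type (WT), all in accession Columbia-0. Plants were 20 days old and had grown at 23 C in a day of 16 h light and 8 h dark, and every library came from 5 whole rosettes pooled from different pots 6.5 h after dawn. Each allele was carried by its own line, so a difference between the lines outside MED5B cannot be told apart from a difference between the alleles.

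Mediator is a large complex that carries signals from DNA-bound transcription factors to RNA polymerase II. MED5 belongs to its tail module, the part that contacts many of these factors, and Arabidopsis has a pair of genes for it, MED5A and MED5B. The ref4 mutants carry single amino acid changes in MED5B that act as gain of function, and they are known for small stature and low levels of phenylpropanoids, the compounds from which lignin and sinapate esters are made.

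Total gene counts were 11757969 to 13445046 in ref4-3 and 9573567 to 16803904 in ref4-1, so that 1 count was worth 0.0595 to 0.104 CPM, the read count scaled to a common library total, in these 6 libraries. One library stood apart. In ref4-1 replicate 3 the share of reads that were not uniquely placed was 6.62%, against 2.65 to 3.29% in the other 5 libraries, and chloroplast genes held 0.0475% of counts, against 0.0191 to 0.0252%. Its chi-square per degree of freedom against its group mates was 15.1 and 11.9, against 3.60 to 6.39 for the other pairs within an allele. Libraries of the other genotypes also entered the estimate of the spread. Their pairs had 4.97 to 5.82 in WT, 2.685 to 3.78 in cdk8-1 and 2.86 to 3.42 in the double mutant. The part of ref4-1 replicate 3 in the results was not tested beyond leaving it out. Several of the results that then move, though not all, are given with it. The leaf gene RBCS1A, for the small subunit of Rubisco, had 9097, 10320 and 9058 CPM in ref4-3, against 9150, 10360 and 11230 CPM in ref4-1. Root markers stood at 0 to 0.0698 CPM in ref4-3 and 0 to 0.0582 CPM in ref4-1 as a sum of 4 genes, with 2 of them at 0, and seed storage markers at 0.245 to 0.609 and 0.175 to 0.484 CPM as a sum of 9 genes, with 6 at 0. Guard cell markers summed to 86.3 to 91.8 CPM in ref4-3 and 80.6 to 89.1 CPM in ref4-1, xylem markers to 68.0 to 100 and 73.4 to 86.8 CPM, and flower organ markers to 1.98 to 3.26 and 3.03 to 5.94 CPM. Phloem markers summed to 444 to 500 CPM in ref4-3 and 404 to 453 CPM in ref4-1, epidermis markers to 474 to 588 and 472 to 691 CPM, and shoot meristem markers to 5.80 to 8.64 and 3.90 to 6.93 CPM. Of the markers, the phloem lectin gene PP2-A1 was called higher in ref4-3 (log2 fold change 0.27 ± 0.073, adjusted p = 0.0199) and the epidermal regulator ATML1 lower (log2 fold change -0.31 ± 0.088, adjusted p = 0.0269), and both calls were lost without ref4-3 replicate 2 or 3 and without ref4-1 replicate 3, among others.

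Of 33601 genes in the table, 18935 passed the filter, which asked for over 1 CPM in 3 or more libraries of the 15. At a Benjamini-Hochberg adjusted p under 0.05 from the quasi-likelihood test of edgeR, 2095 genes differed between the alleles, or 11.1% of those tested. In ref4-3, 882 were higher (4.66% of tested genes) and 1213 lower (6.41%). Scaling by library totals alone gave 1885 higher and 716 lower and moved the median of all genes by 0.0728 on the log2 scale, so small differences that many genes share depend on the scaling. Most differences were small: 187 genes (0.988%) were called and at least 2-fold apart, 114 of them higher in ref4-3 and 73 lower, and the median size of a called log2 fold change was 0.367. The count was 823 when the 6 libraries were fitted alone and 1040 without ref4-3 replicate 3. The groups of 3 did not overlap at 14.0% of tested genes on the higher and 13.8% on the lower side, and 2011 of the 2095 called genes were among these. Called genes were a larger share of the highly expressed ones, 5.24% in the lowest quartile by level and 19.9% in the highest, where the median SE of a log2 fold change was 0.243 and 0.0692.

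**Figure D1:**
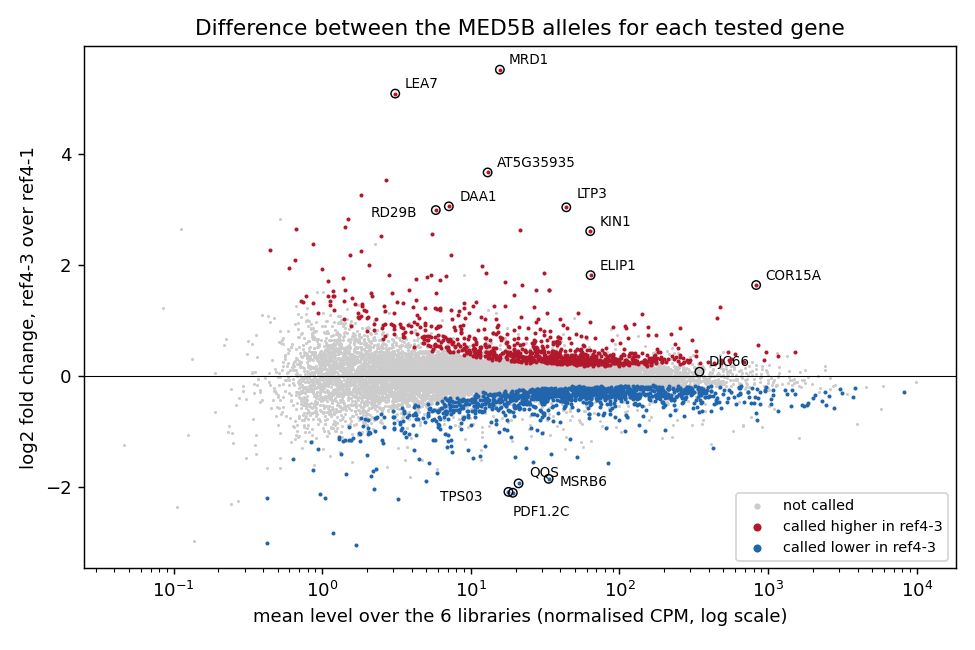
Log2 fold change of ref4-3 over ref4-1 for the 18935 tested genes against the mean level over the 6 libraries (normalised CPM, log axis), with genes called higher in ref4-3 in red, called lower in blue and named genes circled. MRD1 (5.51) and LEA7 (5.08) lie farthest above 0, and QQS (-1.94) and MSRB6 (-1.86) lie well below it.

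The greatest rises in ref4-3, among called genes of at least 5 CPM, fell into a pair of kinds. In the first kind ref4-1 stood farther from WT than ref4-3 did. MRD1 (AT1G53480, chromosome 1, 19963047 to 19964712, TAIR10.1), a gene of unknown function, had 31.9, 26.8 and 33.0 CPM in ref4-3, against 0.277, 0.408 and 1.69 CPM in ref4-1 (log2 fold change 5.51 ± 0.24, adjusted p = 1.66e-10). All ref4-3 libraries were thus far above all ref4-1 libraries, and the level was 29.0 ± 2.05 CPM in WT. The near loss of MRD1 was not particular to ref4-1, since cdk8-1 held 1 count in all its libraries, against 1025 in WT. The gene HEI10 (AT1G53490), which overlaps MRD1 on the other strand, was called as well, with a log2 fold change of 1.48 and an adjusted p of 0.000498, and whether the counting kept the strands apart is not given. The uncharacterised AT5G35935 (chromosome 5, 14083388 to 14089891) had 25.4, 24.1 and 22.7 CPM in ref4-3, against 2.01, 1.92 and 1.69 CPM in ref4-1 (log2 fold change 3.66 ± 0.12, adjusted p = 3.62e-15), and 17.1 ± 0.885 CPM in WT.

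In the second kind ref4-1 lay between ref4-3 and WT, as for 8 of the 10 greatest rises. LEA7, a late embryogenesis abundant protein of the kind that protects cells from drying, had 5.17, 4.98 and 8.01 CPM in ref4-3, against 0.138, 0.291 and 0 CPM in ref4-1 (log2 fold change 5.08 ± 0.58, adjusted p = 0.000235), and no count in any WT library. DAA1, an ATPase best known from pollen, had 9.16, 19.0 and 9.91 CPM in ref4-3, against 1.18, 1.69 and 1.69 CPM in ref4-1 (log2 fold change 3.05 ± 0.3, adjusted p = 5.52e-05), and 0.0849 ± 0.000986 CPM in WT. Replicate 2 was the highest ref4-3 library for DAA1 and for most genes of this kind. The lipid transfer protein LTP3 had 71.0, 97.7 and 66.3 CPM in ref4-3, against 8.30, 11.7 and 8.13 CPM in ref4-1 (log2 fold change 3.03 ± 0.22, adjusted p = 1.44e-05), and 1.22 ± 0.383 CPM in WT. LTP4, which is near-identical to it so that single values are uncertain, differed by 2.62 ± 0.29 (adjusted p = 0.000346). The remaining 4 were the dehydration genes RD29B (2.98 ± 0.35) and KIN1 (2.60 ± 0.26), the unannotated AT3G56275 (2.56 ± 0.31) and AT2G37870 (2.18 ± 0.25), a member of the family of lipid transfer proteins and albumins.

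Among the 10 greatest falls, 8 were highest in WT and lowest in ref4-3. MSRB6, a methionine sulfoxide reductase that repairs oxidised protein, had 17.2, 13.8 and 12.4 CPM in ref4-3, against 56.0, 56.5 and 44.3 CPM in ref4-1 (log2 fold change -1.86 ± 0.21, adjusted p = 0.00043), and 148 ± 37.9 CPM in WT. The alleles were well apart here and both lay below WT. The MATE transporter AT3G23550 had 2.38, 1.31 and 2.59 CPM in ref4-3, against 6.50, 9.21 and 7.92 CPM in ref4-1 (log2 fold change -1.90 ± 0.23, adjusted p = 5.97e-05), and 54.4 ± 7.29 CPM in WT. TPS03, which makes the leaf volatile ocimene, had 5.17, 10.4 and 5.57 CPM in ref4-3, against 41.0, 32.6 and 12.7 CPM in ref4-1 (log2 fold change -2.09 ± 0.46, adjusted p = 0.0164), and 47.6 ± 15.4 CPM in WT. Its ref4-1 libraries spread more than 3-fold, and leaving out ref4-3 replicate 1 or 3 lost the call. The thionin AT1G66100 (-1.57 ± 0.27), the dark-inducible oxygenase DIN11 (-1.55 ± 0.34), the cytochrome P450 CYP81D11 (-1.76 ± 0.38), the methyl esterase MES7 (-2.23 ± 0.48) and the defensin PDF1.2C (-2.11 ± 0.4) were the others of this kind. Leaving out ref4-3 replicate 3 lost the calls of DIN11, CYP81D11 and MES7, and leaving out ref4-3 replicate 1 those of DIN11 and CYP81D11.

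The other 2 falls were genes at which the mean of ref4-1 stood above those of both ref4-3 and WT. QQS, an orphan gene found in Arabidopsis that is known to lower leaf starch, had 9.58, 6.86 and 9.46 CPM in ref4-3, against 30.9, 34.7 and 34.2 CPM in ref4-1 (log2 fold change -1.94 ± 0.21, adjusted p = 8.97e-05), and 10.9 ± 4.40 CPM in WT. Its ref4-1 libraries lay within 30.9 to 34.7 CPM, far above those of ref4-3. AT2G20870, annotated as a cell wall protein precursor, had 3.50, 1.80 and 2.29 CPM in ref4-3, against 7.61, 3.61 and 12.7 CPM in ref4-1 (log2 fold change -1.56 ± 0.41, adjusted p = 0.0285), and 4.33 ± 0.0503 CPM in WT. That call was lost without ref4-3 replicate 2 or 3 or ref4-1 replicate 1.

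**Figure D2:**
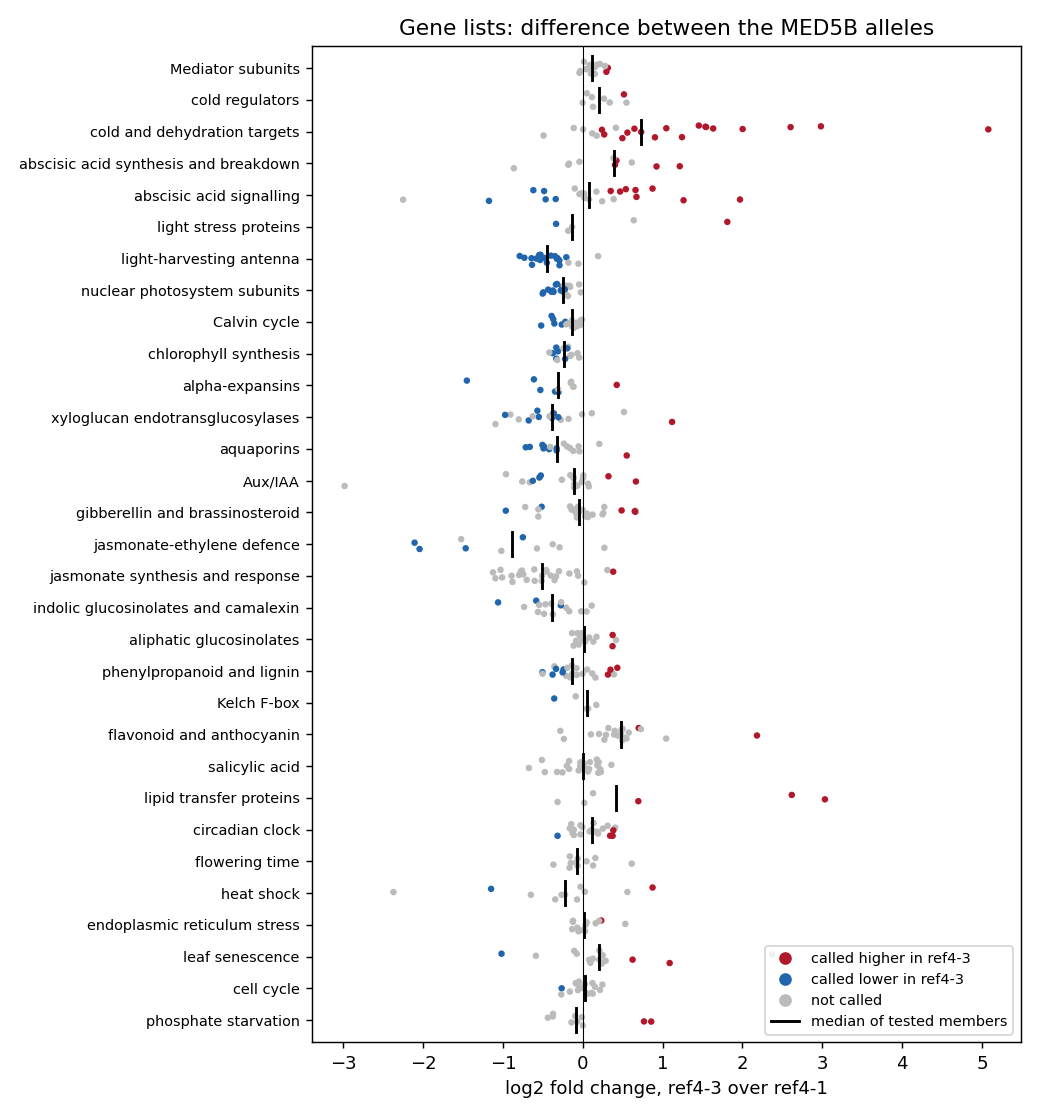
Log2 fold change of ref4-3 over ref4-1 for the tested members of 31 gene lists, 1 point per gene, red where called higher in ref4-3, blue where called lower and grey where not called, with a black bar at the median. Cold and dehydration targets lie to the right, with a median of 0.73, and light-harvesting antenna genes to the left, with a median of -0.45.

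Most of the listed genes that plants switch on in cold and drought were higher in ref4-3. Of 23 cold and dehydration targets, all of them tested, 17 rose and none fell, beside 4.66% of all tested genes called higher, and their median log2 fold change was 0.73 beside 0.00063 over all genes. The count was 14 with the 6 libraries fitted alone and 16 or 17 when any 1 library was left out. RD29A, the classic reporter of this response, had 686, 688 and 634 CPM in ref4-3, against 279.8, 322 and 246 CPM in ref4-1 (log2 fold change 1.24 ± 0.084, adjusted p = 3.15e-09), and 221 ± 21.4 CPM in WT. COR15A, which protects chloroplast membranes in freezing, had 1214, 1361 and 1196 CPM in ref4-3, against 415, 538 and 260.3 CPM in ref4-1 (log2 fold change 1.63 ± 0.22, adjusted p = 0.00125), and 107 ± 19.4 CPM in WT. For both genes every ref4-3 library exceeded every ref4-1 library, and every ref4-1 library exceeded the WT mean.

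The dehydrins, hydrophilic proteins that shield other proteins and membranes from water loss, differed by unequal amounts. LTI30 had 42.9, 59.8 and 48.4 CPM in ref4-3, against 16.9, 23.3 and 9.50 CPM in ref4-1 (log2 fold change 1.54 ± 0.22, adjusted p = 0.00184), and RAB18 had 29.8, 62.5 and 30.4 CPM in ref4-3, against 13.3, 12.3 and 17.3 CPM in ref4-1 (log2 fold change 1.54 ± 0.3, adjusted p = 0.00954). ERD10 had 376, 387 and 364 CPM in ref4-3, against 253, 254 and 213 CPM in ref4-1 (log2 fold change 0.65 ± 0.067, adjusted p = 2.57e-06). For these 3 genes the alleles did not overlap. COR47 rose by 0.50 ± 0.06 (adjusted p = 1.6e-05), and ERD14 differed by 0.17 ± 0.075 without passing the test (adjusted p = 0.143). Among genes for other protective proteins, RD29B had 9.16, 14.8 and 7.40 CPM in ref4-3, against 0.899, 2.097 and 0.528 CPM in ref4-1 (log2 fold change 2.98 ± 0.35, adjusted p = 0.000261) and KIN1 had 88.0, 133 and 108 CPM in ref4-3, against 17.63, 23.2 and 11.6 CPM in ref4-1 (log2 fold change 2.60 ± 0.26, adjusted p = 0.000178). KIN2, a near-identical neighbour of KIN1 whose reads cannot be fully told apart from it, differed by 0.56 ± 0.12 (adjusted p = 0.00936). LEA4-5 (2.00 ± 0.38) and LEA14 (0.73 ± 0.078) also rose, as did the membrane protein genes COR413IM1 (0.90 ± 0.13) and COR413-PM1 (0.24 ± 0.067). The call of KIN2 was lost without ref4-1 replicate 3, and that of COR413-PM1 without ref4-3 replicate 2 or 3 or ref4-1 replicate 1 or 2. The rise did not extend to the whole protein family. Of 37 tested genes annotated as late embryogenesis abundant or dehydrin, 6 were called higher and none lower, with a median of 0.01. The 16.2% called higher stand beside 4.66% of all tested genes.

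The galactinol synthases, which make the precursor of raffinose sugars, did not all rise. GOLS2 had 24.5, 28.6 and 32.5 CPM in ref4-3, against 10.3, 10.9 and 9.82 CPM in ref4-1 (log2 fold change 1.45 ± 0.12, adjusted p = 8.73e-08), and 1.3 ± 0.374 CPM in WT. GOLS1 had 16.2, 39.8 and 21.6 CPM in ref4-3, against 48.0, 39.1 and 18.6 CPM in ref4-1 (log2 fold change -0.49 ± 0.42, adjusted p = 0.515) and overlapped between the alleles. COR27 and COR28, cold genes that also act in the circadian clock, differed by -0.11 ± 0.072 (adjusted p = 0.335) and 0.003 ± 0.091 (adjusted p = 0.988).

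Of 8 tested cold regulators, which act upstream of these targets, 1 was called (12.5%), a share near the 11.1% of all tested genes. It was DREB2A, a transcription factor of the drought and heat response, with 10.8, 14.7 and 14.9 CPM in ref4-3, against 9.34, 8.86 and 10.2 CPM in ref4-1 (log2 fold change 0.52 ± 0.15, adjusted p = 0.0275). Its call was lost without ref4-3 replicate 2 or 3 or ref4-1 replicate 1 or 2. CBF3, a main activator of cold genes, had 4.12, 5.63 and 5.19 CPM in ref4-3, against 2.42, 4.37 and 5.28 CPM in ref4-1 (log2 fold change 0.34 ± 0.21, adjusted p = 0.323) and overlapped. CBF2 was at no more than 0.571 CPM in ref4-3 and 0.233 CPM in ref4-1, and CBF1 did not pass the filter. ICE1 (0.051 ± 0.062, adjusted p = 0.646) and CAMTA3 (-0.002 ± 0.069, adjusted p = 0.99), regulators of the CBF genes, did not pass the test.

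**Figure D3:**
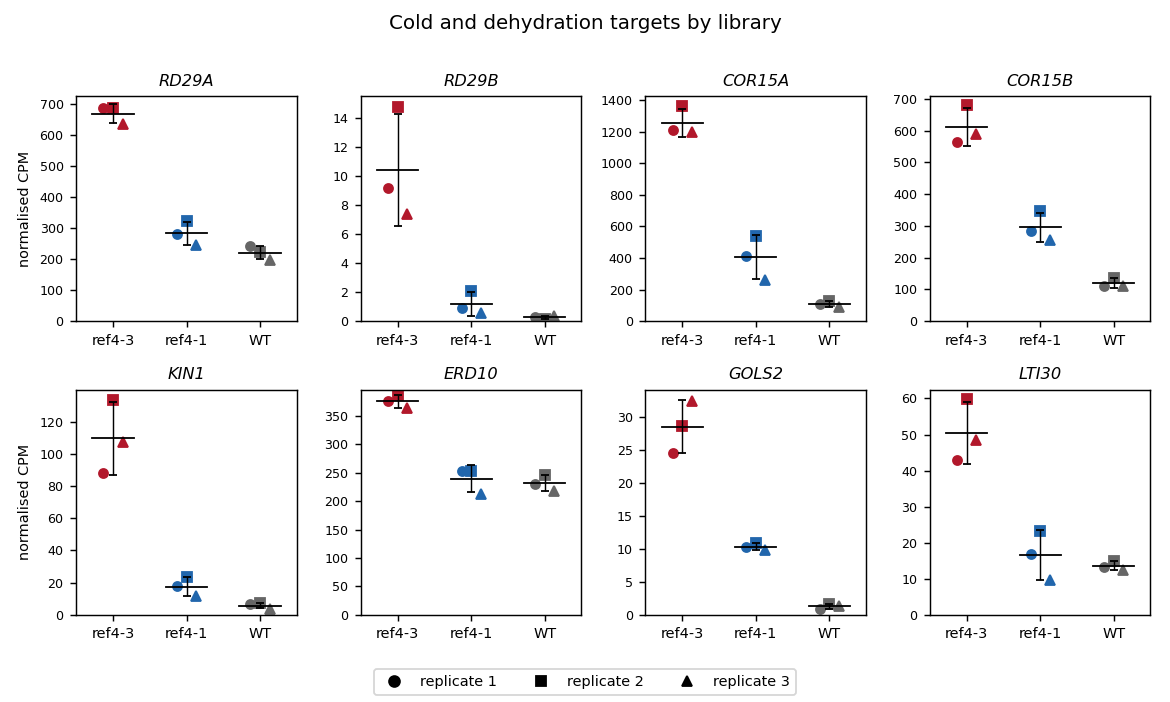
Normalised CPM of 8 cold and dehydration targets in each library of ref4-3, ref4-1 and WT, with replicates as separate symbols, a black line at the mean and bars of 1 SD (n = 3). In each of the 8 panels the 3 ref4-3 libraries lie above the 3 ref4-1 libraries, as for RD29A at 634 to 688 CPM against 246 to 322 CPM.

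Promoters of 5 of the targets are shown because they carry the DNA elements for which the family is known. The 250 bases before the annotated start are printed from the RefSeq assembly TAIR10.1, 5′ to 3′ on the strand of the gene. Capitals mark the core of the drought-responsive element (DRE, CCGAC or its reverse complement GTCGG), which CBF and DREB factors bind, and the core of the abscisic acid-responsive element (ABRE, ACGTG or CACGT), which ABF factors bind.
RD29A promoter, chr5:21240467-21240716, plus strand: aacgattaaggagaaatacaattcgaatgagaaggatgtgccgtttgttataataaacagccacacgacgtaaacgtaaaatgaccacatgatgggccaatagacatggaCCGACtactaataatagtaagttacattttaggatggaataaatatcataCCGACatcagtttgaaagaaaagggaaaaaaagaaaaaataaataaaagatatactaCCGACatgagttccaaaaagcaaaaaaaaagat
RD29B promoter, chr5:21236771-21237020, plus strand: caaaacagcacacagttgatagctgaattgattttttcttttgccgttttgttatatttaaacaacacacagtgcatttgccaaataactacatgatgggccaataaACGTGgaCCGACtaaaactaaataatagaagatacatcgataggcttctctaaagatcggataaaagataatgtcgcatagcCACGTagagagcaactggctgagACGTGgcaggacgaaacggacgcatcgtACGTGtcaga
COR15A promoter, chr2:17712331-17712580, minus strand: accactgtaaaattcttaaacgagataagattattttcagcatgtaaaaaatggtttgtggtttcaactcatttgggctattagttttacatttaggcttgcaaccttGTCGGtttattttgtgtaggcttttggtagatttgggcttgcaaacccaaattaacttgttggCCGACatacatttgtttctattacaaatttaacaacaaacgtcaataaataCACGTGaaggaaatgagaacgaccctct
LTI30 promoter, chr3:18940393-18940642, plus strand: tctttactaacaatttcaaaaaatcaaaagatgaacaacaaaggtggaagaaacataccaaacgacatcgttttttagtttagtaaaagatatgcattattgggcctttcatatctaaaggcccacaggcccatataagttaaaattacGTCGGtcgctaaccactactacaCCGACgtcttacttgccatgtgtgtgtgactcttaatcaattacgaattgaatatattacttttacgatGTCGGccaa
LEA7 promoter, chr1:19619474-19619723, plus strand: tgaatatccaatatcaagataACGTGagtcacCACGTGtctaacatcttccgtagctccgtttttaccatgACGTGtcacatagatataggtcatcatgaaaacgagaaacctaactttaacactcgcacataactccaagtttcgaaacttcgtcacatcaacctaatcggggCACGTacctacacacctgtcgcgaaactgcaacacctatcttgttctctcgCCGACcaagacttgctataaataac
In these windows RD29A and LTI30 held 3 DRE cores and no ABRE core, RD29B 1 and 4, COR15A 2 and 2, and LEA7 1 and 5, where the palindrome CACGTG counts once on each strand. Over the 23 targets 10 promoters (43.5%) held a DRE core and 14 (60.9%) an ABRE core, beside 13.1% and 23.5% of the 18870 tested genes with a promoter in the assembly. Among all genes called higher in ref4-3 the shares were 15.5% and 34.2%, and among those called lower 10.9% and 24.5%. COR15B, COR47 and ERD10 rose with neither core in the window, while GOLS3 had 2 of each and did not pass the test. A match only says that these letters are present.

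Abscisic acid is the hormone of water deficit: PYR/PYL receptors that bind it block PP2C phosphatases, which frees SnRK2 kinases to act on ABF transcription factors. Of 23 tested signalling genes 8 rose (34.8%) and 5 fell (21.7%), beside 4.66% and 6.41% of all tested genes. All 8 that rose were phosphatases or ABF factors and all 5 that fell were receptors. With ref4-3 replicate 2 or 3 left out, 3 receptors instead of 5 were called, PYL4 and PYL5 being the ones lost. PYL4 also lost its call without ref4-3 replicate 1, without ref4-1 replicate 3 and with the 6 libraries fitted alone.

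HAI2, a phosphatase strongly induced by abscisic acid, had 17.1, 25.0 and 15.2 CPM in ref4-3, against 4.43, 6.0 and 3.69 CPM in ref4-1 (log2 fold change 1.97 ± 0.17, adjusted p = 6.91e-07), and 0.680 ± 0.176 CPM in WT. PP2CA had 111, 139.6 and 102 CPM in ref4-3, against 55.9, 69.2 and 67.3 CPM in ref4-1 (log2 fold change 0.87 ± 0.095, adjusted p = 1.44e-05). In both genes ref4-3 replicate 2 was the highest library and no ref4-1 library reached the lowest of ref4-3. ABI2 (0.66 ± 0.093), HAB1 (0.54 ± 0.078), HAI1 (1.26 ± 0.24) and ABI1 (0.35 ± 0.079) rose too, so that 6 of 7 tested phosphatases of the list rose, and HAB2 differed by 0.17 ± 0.068 (adjusted p = 0.11). Over all 55 tested genes annotated as protein phosphatase 2C, 7 were called higher and 1 lower (14.5%), with a median of 0.05. Of all tested genes 11.1% were called, 4.66% higher and 6.41% lower. Of the 5 bZIP factors, ABF3 had 27.8, 32.5 and 26.5 CPM in ref4-3, against 15.7, 20.4 and 18.1 CPM in ref4-1 (log2 fold change 0.67 ± 0.11, adjusted p = 0.000685) and ABF2 differed by 0.47 ± 0.083 (adjusted p = 0.00101). ABF1, ABF4 and ABI5 did not pass the test.

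The receptor PYR1 had 19.4, 17.7 and 15.8 CPM in ref4-3, against 25.7, 22.4 and 26.6 CPM in ref4-1 (log2 fold change -0.48 ± 0.098, adjusted p = 0.00286), and 29.4 ± 2.94 CPM in WT. PYL1 had 13.1, 13.6 and 12.9 CPM in ref4-3, against 17.1, 19.0 and 18.6 CPM in ref4-1 (log2 fold change -0.47 ± 0.099, adjusted p = 0.00427), and PYL8 had 64.0, 57.6 and 54.4 CPM in ref4-3, against 74.2, 74.3 and 74.2 CPM in ref4-1 (log2 fold change -0.34 ± 0.072, adjusted p = 0.00446). PYL4 (-0.62 ± 0.17) and PYL5 (-1.18 ± 0.3) were lower as well, while PYL7 (-0.10 ± 0.075, adjusted p = 0.427) and PYL9 (0.077 ± 0.11, adjusted p = 0.709) did not pass the test. PYL6 was near the limit of counting, with 3 counts in all of ref4-3 and no more than 0.950 CPM in ref4-1. The 3 SnRK2 kinase genes measured, OST1 (0.24 ± 0.088, adjusted p = 0.0796), SNRK2.2 (0.017 ± 0.053) and SNRK2.3 (0.02 ± 0.079), did not pass the test either.

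**Figure D4:**
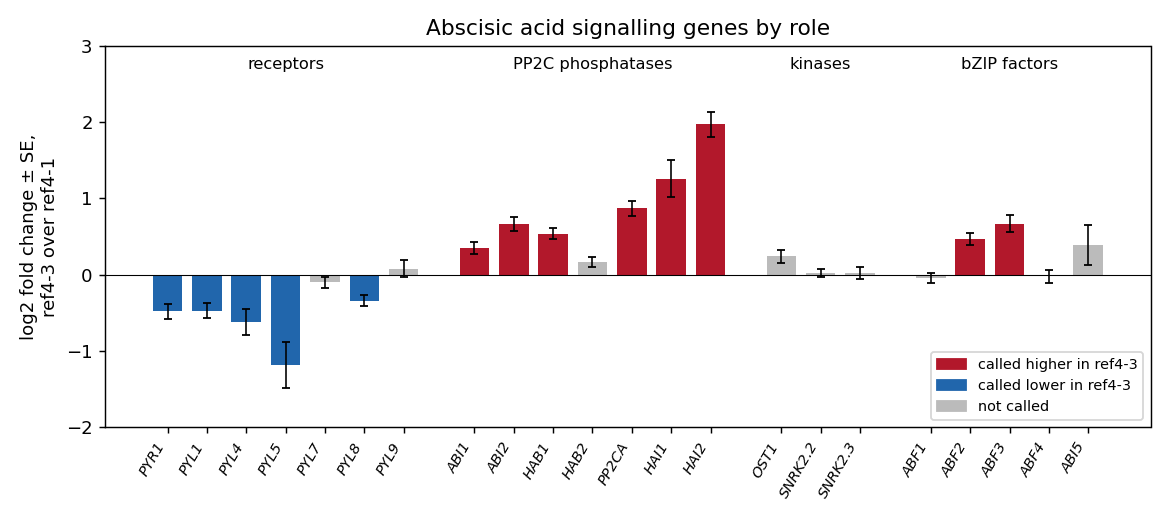
Log2 fold change of ref4-3 over ref4-1 with its SE for abscisic acid signalling genes grouped by role, red where called higher in ref4-3, blue where called lower and grey where not called. Receptors lie mostly below 0, phosphatases all above 0 with HAI2 at 1.97, and the kinases near 0; PYL6, with 3 counts in ref4-3, is not drawn.

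Of 10 tested genes for the making and breakdown of abscisic acid 4 rose (40.0%) and none fell with edgeR, beside 4.66% of all tested genes called higher. CYP707A2, which breaks the hormone down, had 8.74, 7.67 and 7.47 CPM in ref4-3, against 3.53, 3.03 and 3.91 CPM in ref4-1 (log2 fold change 1.21 ± 0.15, adjusted p = 2.19e-05), and 2.35 ± 0.449 CPM in WT. CYP707A4, another breakdown enzyme, differed by 0.92 ± 0.23 (adjusted p = 0.0125). AAO3 (0.42 ± 0.1, adjusted p = 0.00951) and ABA3 (0.40 ± 0.097, adjusted p = 0.00954), which act in the last step of synthesis, rose slightly. NCED3, the enzyme of the limiting step, had 7.76, 11.8 and 11.1 CPM in ref4-3, against 7.26, 9.21 and 6.54 CPM in ref4-1 (log2 fold change 0.38 ± 0.16, adjusted p = 0.135) and overlapped. BGLU18, which releases the hormone from its glucose ester, had 2624, 3318 and 2542 CPM in ref4-3, against 7530, 5000 and 2906 CPM in ref4-1 (log2 fold change -0.86 ± 0.31, adjusted p = 0.106), and its ref4-1 libraries differed more than 2-fold among themselves. BGLU18 was called lower with DESeq2 (adjusted p = 0.048), with limma-voom (0.0485), without the robust estimate of spread (0.0283) and without ref4-1 replicate 3 (0.0247). With the 6 libraries fitted alone 1 of the 4 rises was called. Leaving out ref4-3 replicate 3 lost the call of ABA3, and leaving out ref4-3 replicate 2 that of CYP707A4.

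The light-stress gene ELIP1 was higher in ref4-3 and light-harvesting genes were lower. ELIP1, which binds chlorophyll set free in strong light, had 82.9, 102 and 114 CPM in ref4-3, against 26.6, 30.9 and 27.2 CPM in ref4-1 (log2 fold change 1.81 ± 0.15, adjusted p = 1.23e-05), and 0.792 ± 0.341 CPM in WT. Its relative ELIP2 was low, with 1.33, 1.31 and 1.37 CPM in ref4-3, against 0.899, 0.757 and 0.950 CPM in ref4-1 (log2 fold change 0.64 ± 0.42, adjusted p = 0.361), and LIL3:1, which acts in chlorophyll synthesis, fell (log2 fold change -0.33 ± 0.073, adjusted p = 0.00532), the other called gene of 5 in the list of light-stress proteins. Of 21 genes for the light-harvesting antenna 18 fell and none rose, beside 6.41% of all tested genes called lower, with a median of -0.45. With the 6 libraries fitted alone 8 fell, and without ref4-3 replicate 3 or ref4-1 replicate 3 it was 12 and 13.

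LHCB2.1, an antenna protein of photosystem II, had 216, 201 and 197 CPM in ref4-3, against 302, 334 and 385 CPM in ref4-1 (log2 fold change -0.73 ± 0.079, adjusted p = 4.12e-06), and 597 ± 49.3 CPM in WT. LHCA4, of the photosystem I antenna, had 2007, 2040 and 1954 CPM in ref4-3, against 2656, 2828 and 3180 CPM in ref4-1 (log2 fold change -0.53 ± 0.069, adjusted p = 4.26e-05), and 4077 ± 241 CPM in WT. In both genes no libraries overlapped, ref4-1 replicate 3 was the highest ref4-1 library, and both alleles were below WT. LHCB1.2 differed by -0.64 ± 0.082 and LHCB1.1 by -0.79 ± 0.12, though the LHCB1 genes, like LHCB2.1 and LHCB2.2 (-0.64 ± 0.079), share near-identical sequence. The 3 that were not called were LHCB4.1 (-0.18 ± 0.075), LHCB4.3 (-0.055 ± 0.12) and LHCB7 (0.19 ± 0.11).

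Of 22 nuclear genes for photosystem subunits 12 fell (54.5%, beside 6.41% of all tested genes called lower) and none rose, with a median of -0.25. Among them were PSAF (-0.50 ± 0.088, adjusted p = 0.00107) and PSAN (-0.50 ± 0.11, adjusted p = 0.00762), which serve electron transfer from plastocyanin to photosystem I. The count of photosystem genes that fell was 4 with the 6 libraries alone and 7 without ref4-3 replicate 3 or without ref4-1 replicate 3, where PSAN was among those lost in the second case. Of 14 chlorophyll synthesis genes 6 fell (42.9%, beside the same 6.41%), with a median of -0.23. PORB, a protochlorophyllide reductase, had 641, 666 and 621 CPM in ref4-3, against 791, 796 and 913 CPM in ref4-1 (log2 fold change -0.37 ± 0.063, adjusted p = 0.000554), and 1273 ± 37.9 CPM in WT. The regulator GLK1, which activates many of these genes, fell slightly (-0.22 ± 0.064, adjusted p = 0.0276) and lost its call without ref4-3 replicate 2 or 3 or ref4-1 replicate 2 or 3. Of 18 Calvin cycle genes 6 fell (33.3%, again beside 6.41%), with a median of -0.14. The count was 0 with the 6 libraries alone and 3 without ref4-3 replicate 3 or without ref4-1 replicate 3. Rubisco activase RCA had 2374, 2243 and 2149 CPM in ref4-3, against 2605, 2638 and 3420 CPM in ref4-1 (log2 fold change -0.36 ± 0.082, adjusted p = 0.00757), and the RBCS genes, near-identical among themselves, ran from -0.52 ± 0.11 to -0.11 ± 0.082. In bulk RNA of whole rosettes fewer cells of a type and less RNA per cell cannot be told apart.

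Families linked to cell expansion had more members called lower than higher in ref4-3, although in each at least 5 members did not pass the test. Of 19 tested xyloglucan endotransglucosylases, enzymes that cut and rejoin the xyloglucan of the wall, 8 fell (42.1%) and 1 rose (median -0.39), beside 6.41% and 4.66% of all tested genes. XTH31 was the one that rose, with 203, 203 and 175 CPM in ref4-3, against 94.0, 84.8 and 88.9 CPM in ref4-1 (log2 fold change 1.12 ± 0.079, adjusted p = 7.92e-09), and 23.5 ± 2.34 CPM in WT. XTH6 had 23.1, 15.7 and 17.39 CPM in ref4-3, against 36.9, 32.5 and 42.5 CPM in ref4-1 (log2 fold change -0.97 ± 0.19, adjusted p = 0.00794), and XTH9 had 134, 136 and 141 CPM in ref4-3, against 192, 165 and 180.3 CPM in ref4-1 (log2 fold change -0.39 ± 0.09, adjusted p = 0.0093). The number that fell was 5 without ref4-1 replicate 1.

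Of 11 tested alpha-expansins, proteins that loosen the wall, 5 fell (45.5%) and 1 rose (median -0.31), beside 6.41% and 4.66% of all tested genes. EXPA8 had 6.50, 3.67 and 7.93 CPM in ref4-3, against 19.4, 11.4 and 20.4 CPM in ref4-1 (log2 fold change -1.45 ± 0.3, adjusted p = 0.0113), and 54.7 ± 1.21 CPM in WT. EXPA1 had 125, 106 and 127 CPM in ref4-3, against 177, 152 and 220 CPM in ref4-1 (log2 fold change -0.61 ± 0.12, adjusted p = 0.00579). EXPA15 rose, with 31.5, 31.0 and 33.1 CPM in ref4-3, against 22.2, 25.1 and 23.9 CPM in ref4-1 (log2 fold change 0.42 ± 0.084, adjusted p = 0.00244). The number that fell was 3 without ref4-3 replicate 2, without ref4-1 replicate 1 or without ref4-1 replicate 3.

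Aquaporins, the water channels of plasma membrane and vacuole, had 8 of 17 members called lower (47.1%) and 1 higher (median -0.33), beside 6.41% and 4.66% of all tested genes. The number called lower was 6 to 9 with single libraries left out. It was 6 with the 6 libraries alone, with library totals alone and without the filter on low counts. The vacuolar TIP2;1 had 85.4, 81.0 and 83.7 CPM in ref4-3, against 130.5, 126 and 155 CPM in ref4-1 (log2 fold change -0.71 ± 0.078, adjusted p = 4.26e-06), and 313 ± 10.9 CPM in WT. The plasma membrane channel PIP1;1 had 36.2, 37.6 and 36.4 CPM in ref4-3, against 51.9, 48.2 and 55.3 CPM in ref4-1 (log2 fold change -0.49 ± 0.066, adjusted p = 5.46e-05). PIP2;5 was the one that rose, with 43.7, 45.0 and 46.1 CPM in ref4-3, against 29.1, 27.0 and 37.2 CPM in ref4-1 (log2 fold change 0.55 ± 0.097, adjusted p = 0.000968), and 12.6 ± 1.19 CPM in WT. PIP1;4 was called higher too with library totals alone (log2 fold change 0.28, adjusted p = 0.016) and without ref4-3 replicate 1 (0.31, adjusted p = 0.0102).

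Of 22 tested Aux/IAA genes, repressors of the auxin response, 3 fell and 2 rose (22.7% called, beside 11.1% of all tested genes). IAA7 (-0.63 ± 0.13), IAA17 (-0.53 ± 0.1) and IAA1 (-0.54 ± 0.13) fell, and IAA28 (0.67 ± 0.15) and IAA27 (0.32 ± 0.085) rose. IAA28 lost its call without ref4-3 replicate 3, and IAA27 without ref4-3 replicate 2 or ref4-1 replicate 3. Of 25 tested gibberellin and brassinosteroid genes 3 rose and 2 fell (20.0% called). GA3OX1, which makes active gibberellin, had 7.76, 10.2 and 7.17 CPM in ref4-3, against 4.98, 4.89 and 6.23 CPM in ref4-1 (log2 fold change 0.66 ± 0.16, adjusted p = 0.00944), a call lost without ref4-3 replicate 2. GA2OX2, which inactivates it, had 4.54, 3.59 and 4.35 CPM in ref4-3, against 8.02, 7.98 and 8.55 CPM in ref4-1 (log2 fold change -0.96 ± 0.17, adjusted p = 0.000885). The DELLA repressor RGL1 fell (-0.52 ± 0.086), whereas RGA (-0.061 ± 0.062, adjusted p = 0.581) and GAI (0.029 ± 0.071, adjusted p = 0.841) did not pass the test. ROT3 (0.65 ± 0.15) and BR6OX2 (0.49 ± 0.096), brassinosteroid synthesis genes, rose. The cell cycle list of 17 genes had 1 called member (5.88%), the cytokinesis syntaxin KN, which fell (-0.26 ± 0.075) and lost its call without ref4-3 replicate 1 or 3 or ref4-1 replicate 3.

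Of 10 tested defence genes of the jasmonate and ethylene route 4 fell (40.0%), beside 6.41% of all tested genes. None rose, 6 did not pass the test, and the median was -0.89. The number that fell was 2 with the 6 libraries alone and 5 with DESeq2 or with limma-voom. DESeq2 added PDF1.2B (log2 fold change -1.49, adjusted p = 2.27e-05) and limma-voom added PDF1.3 (log2 fold change -1.14, adjusted p = 0.0221). The defensin PDF1.4 had 0.559, 0.979 and 1.07 CPM in ref4-3, against 3.53, 3.38 and 3.91 CPM in ref4-1 (log2 fold change -2.04 ± 0.3, adjusted p = 0.000139), and 2.92 ± 0.644 CPM in WT, so that here only ref4-3 lay below WT. PR4, a chitin-binding protein, had 85.9, 80.2 and 86.7 CPM in ref4-3, against 164, 128 and 134 CPM in ref4-1 (log2 fold change -0.75 ± 0.13, adjusted p = 0.00272), and 376 ± 64.8 CPM in WT. PDF1.2A, the usual marker of this route, had 21.2, 24.3 and 38.3 CPM in ref4-3, against 109, 76.9 and 42.9 CPM in ref4-1 (log2 fold change -1.47 ± 0.4, adjusted p = 0.0408), and 1198 ± 257 CPM in WT; it lost its call without any of ref4-3 replicates 1, 2 and 3 or ref4-1 replicates 1 and 2. The sequences of PDF1.2A and its relatives PDF1.2C, PDF1.2B and PDF1.3 are near-identical, which leaves their single values uncertain. ERF1 (-0.29 ± 0.33, adjusted p = 0.622) and ORA59 (-0.57 ± 0.22, adjusted p = 0.0962), ethylene response factors that activate the defensins, did not pass the test. ORA59 was called lower without ref4-3 replicate 3 (log2 fold change -0.84, adjusted p = 0.0421).

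The promoter of PDF1.2A is shown for its GCC box (GCCGCC), the element that these factors bind, in capitals, again as the 250 bases before the start on the strand of the gene in TAIR10.1.
PDF1.2A promoter, chr5:17907639-17907888, minus strand: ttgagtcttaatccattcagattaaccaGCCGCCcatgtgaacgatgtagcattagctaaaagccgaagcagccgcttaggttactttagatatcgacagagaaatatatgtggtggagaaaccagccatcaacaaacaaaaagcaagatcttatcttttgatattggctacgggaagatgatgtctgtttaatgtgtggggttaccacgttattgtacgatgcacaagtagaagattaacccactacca
The GCC box was present in 3 of 10 promoters of the list, beside 1.97% of all tested promoters, searched on both strands.

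Jasmonate synthesis and response genes showed lower values in ref4-3 that did not pass the test. Of 27 genes none fell and 1 rose, the repressor JAZ11 (log2 fold change 0.38 ± 0.12, adjusted p = 0.0467). That was 3.7% called, beside 11.1% of all tested genes, although 24 of 27 had a value below 0 and the median was -0.51. The lipoxygenase LOX2 had 4031, 6028 and 3621 CPM in ref4-3, against 8038, 7831 and 4975 CPM in ref4-1 (log2 fold change -0.61 ± 0.22, adjusted p = 0.106). AOC1, an allene oxide cyclase, had 101, 236 and 96.0 CPM in ref4-3, against 374, 413 and 133 CPM in ref4-1 (log2 fold change -1.10 ± 0.43, adjusted p = 0.14), and 446 ± 82.5 CPM in WT. In most of these genes ref4-3 replicate 2 was the highest library of its allele and ref4-1 replicate 3 the lowest of its own, so that the alleles overlapped. VSP1, a storage protein induced by jasmonate, had 730.4, 1308 and 987 CPM in ref4-3, against 3435, 1802 and 1360 CPM in ref4-1 and no overlap (log2 fold change -1.13 ± 0.43, adjusted p = 0.128). At an unadjusted p under 0.05 there were 9 genes, JAZ11 included. The number called lower was 5 without ref4-1 replicate 3, 4 without ref4-3 replicate 2, 2 with DESeq2, 6 with limma-voom and 7 without the robust estimate of spread. With single libraries left out, JAZ11 stayed called only without ref4-1 replicate 2. Its call was also lost with DESeq2, with limma-voom, with the 6 libraries fitted alone and without the robust estimate of spread.

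**Figure D5:**
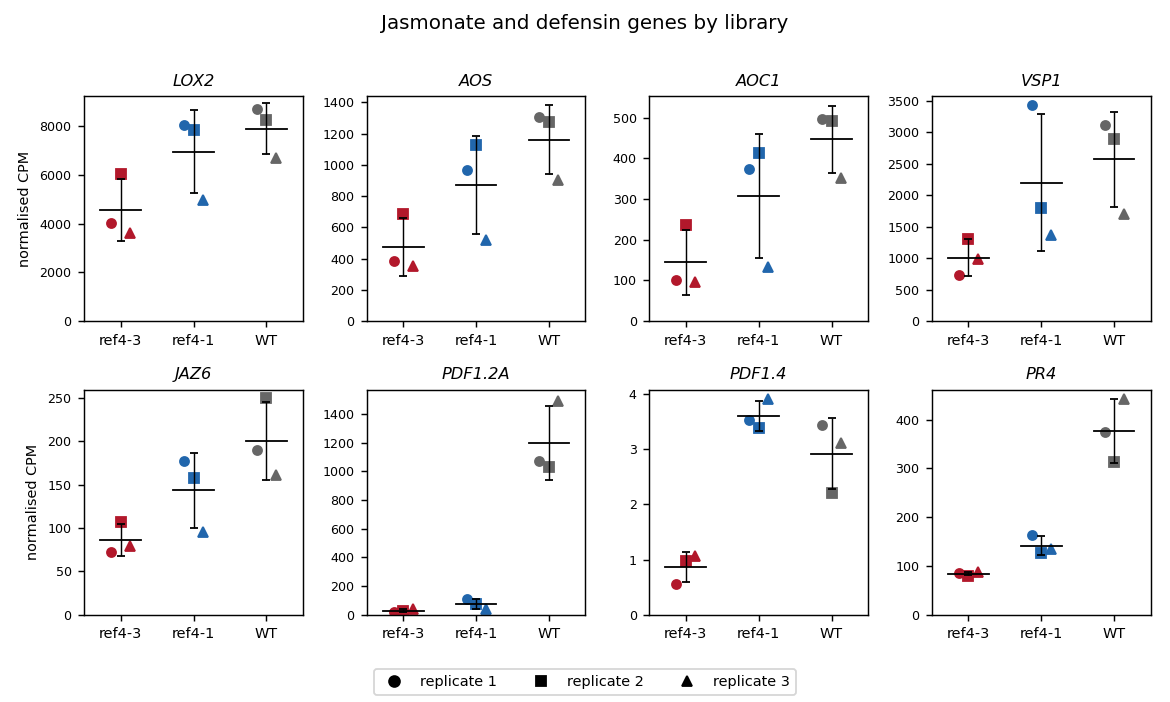
Normalised CPM of 5 jasmonate genes and 3 defence genes in each library of ref4-3, ref4-1 and WT, with replicates as separate symbols, a black line at the mean and bars of 1 SD (n = 3). For LOX2, AOS, AOC1 and JAZ6 the triangle of ref4-1 replicate 3 lies among the ref4-3 libraries, whereas for PDF1.4 and PR4 the alleles are apart.

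Among glucosinolates, the sulfur compounds that deter herbivores, the indolic branch had 3 of 16 tested genes called lower and none higher (median -0.39). That was 18.8%, beside 6.41% of all tested genes called lower. IGMT1, which methylates indolic glucosinolates, had 2.45, 3.35 and 2.52 CPM in ref4-3, against 6.09, 5.42 and 5.81 CPM in ref4-1 (log2 fold change -1.06 ± 0.22, adjusted p = 0.00309), and 11.4 ± 2.32 CPM in WT. The count ran from 1 to 6 as single libraries were left out, 1 without ref4-3 replicate 1 or 3 or without ref4-1 replicate 2 and 6 without ref4-1 replicate 3. In the aliphatic branch 2 of 16 rose and none fell, the risers being its regulators MYB28 (0.37 ± 0.075, adjusted p = 0.00269) and MYB29 (0.37 ± 0.094, adjusted p = 0.014). The share called was 12.5%, near the 11.1% of all tested genes called in either direction, of which 4.66% were higher. The median of the branch was 0.01. MYB28 had 126, 114 and 124 CPM in ref4-3, against 88.9, 97.5 and 95.2 CPM in ref4-1. MYB29 lost its call without ref4-1 replicate 3.

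Of 24 tested phenylpropanoid genes, the pathway for which the mutants are known, 3 rose and 5 fell (33.3% called, beside 11.1% of all tested genes). Their differences were no more than 0.51 in size on the log2 scale, with a median of -0.13. SNG1, which makes sinapoylmalate, the leaf sunscreen, had 121, 115 and 101 CPM in ref4-3, against 163, 154 and 162 CPM in ref4-1 (log2 fold change -0.51 ± 0.069, adjusted p = 7.24e-05), and 264 ± 15.02 CPM in WT. UGT84A2, which makes its donor sinapoylglucose, had 208, 213 and 202 CPM in ref4-3, against 155, 142 and 166 CPM in ref4-1 (log2 fold change 0.43 ± 0.076, adjusted p = 0.000896), and 34.6 ± 1.37 CPM in WT. MYB4, a repressor of the pathway (0.31 ± 0.078), and REF1, which oxidises its aldehydes (0.35 ± 0.085), rose, and CAD4 (-0.38 ± 0.083), CYP98A3 (-0.34 ± 0.081), 4CL1 (-0.25 ± 0.076) and CSE (-0.24 ± 0.074), enzymes of lignin synthesis, fell. CSE lost its call without any 1 library, 4CL1 without ref4-3 replicate 1 or 3 or ref4-1 replicate 2 or 3, MYB4 without ref4-3 replicate 1 or ref4-1 replicate 1, REF1 without ref4-3 replicate 3 and CYP98A3 without ref4-3 replicate 1. PAL1, the entry enzyme, had 57.5, 101 and 71.8 CPM in ref4-3, against 91.1, 92.8 and 56.0 CPM in ref4-1 (log2 fold change -0.073 ± 0.24, adjusted p = 0.882). With single libraries left out 2 to 7 genes fell, 2 without ref4-3 replicate 1, 3 without ref4-3 replicate 3, ref4-1 replicate 2 or ref4-1 replicate 3, and with the 6 libraries alone 1 fell and 1 rose.

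Kelch F-box proteins mark phenylalanine ammonia-lyase for degradation, and their 4 genes did not pass the test between the alleles. KFB39 had 289, 254 and 277 CPM in ref4-3, against 242, 249 and 294 CPM in ref4-1, and 7.84 ± 1.32 CPM in WT (log2 fold change 0.067 ± 0.092, adjusted p = 0.694). KFB50 had 186, 176 and 178 CPM in ref4-3, against 165, 173 and 185 CPM in ref4-1 (log2 fold change 0.048 ± 0.062, adjusted p = 0.668), and 68.4 ± 4.199 CPM in WT. For both genes each library of either allele was above every WT library. KFB-CHS, which acts on chalcone synthase, was called lower (log2 fold change -0.36 ± 0.11, adjusted p = 0.0381) although 1 ref4-3 library overlapped, and that call was lost without ref4-3 replicate 2 or 3 or ref4-1 replicate 1 or 3.

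Flavonoid and anthocyanin genes had 2 of 21 members called (9.52%, beside 11.1% of all tested genes), both higher, with a median of 0.48 and 19 of 21 values above 0. F3H, an early flavonoid enzyme, had 58.3, 91.7 and 72.8 CPM in ref4-3, against 40.1, 48.2 and 48.8 CPM in ref4-1 (log2 fold change 0.70 ± 0.15, adjusted p = 0.013), and 9.76 ± 1.02 CPM in WT. PAP2, a MYB activator of anthocyanin genes, had 1.05, 3.84 and 2.82 CPM in ref4-3, against 0.207, 1.05 and 0.211 CPM in ref4-1 (log2 fold change 2.18 ± 0.53, adjusted p = 0.0164). Its call was lost without ref4-3 replicate 2 or 3 or ref4-1 replicate 1 or 3. With the 6 libraries fitted alone neither F3H nor PAP2 was called. CHS, the entry enzyme of the branch, had 204, 348 and 236 CPM in ref4-3, against 185, 194 and 178 CPM in ref4-1 (log2 fold change 0.50 ± 0.21, adjusted p = 0.155). DFR, the first enzyme of the anthocyanin branch, had 70.7, 183 and 106 CPM in ref4-3, against 73.4, 99.1 and 41.3 CPM in ref4-1 (log2 fold change 0.73 ± 0.41, adjusted p = 0.301), with ref4-3 replicate 2 highest and ref4-1 replicate 3 lowest.

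The salicylic acid list showed no call. Of 28 genes of synthesis, perception and response 0 passed edgeR's test, 4 were under an unadjusted p of 0.05, and DESeq2 and limma-voom also called 0. The median was 0.00, and 2 members were called lower without ref4-3 replicate 2 or without ref4-1 replicate 3. ICS1, the main synthesis gene, had 38.2, 35.1 and 48.0 CPM in ref4-3, against 32.1, 34.6 and 39.7 CPM in ref4-1 (log2 fold change 0.20 ± 0.12, adjusted p = 0.322), and 19.8 ± 4.06 CPM in WT. PR1, the marker of the response, had 235, 242 and 450.2 CPM in ref4-3, against 476, 266 and 582 CPM in ref4-1 (log2 fold change -0.51 ± 0.38, adjusted p = 0.446), and 111 ± 40.7 CPM in WT. Its libraries spread about as far within an allele as between the alleles.

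Of the 6 listed lipid transfer proteins, which carry wax and membrane lipids, 3 rose, beside 4.66% of all tested genes called higher. LTP2 was called with LTP3 and LTP4 (log2 fold change 0.70 ± 0.12, adjusted p = 0.00115), while LTP1 (0.13 ± 0.097, adjusted p = 0.439) did not pass the test. Without ref4-1 replicate 3, LTP1 was called higher (log2 fold change 0.31, adjusted p = 0.00427). Of 21 clock genes 3 rose, RVE2 (0.34 ± 0.075) and RVE6 (0.37 ± 0.12), which belong to the MYB family of the clock, and the coactivator LNK1 (0.38 ± 0.069), while the repressor PRR5 fell (-0.32 ± 0.064). Together 19.0% of the clock genes were called, beside 11.1% of all tested genes. With single libraries left out, RVE6 stayed called only without ref4-1 replicate 2. Of 15 senescence genes, the NAC factors ORE1 (0.62 ± 0.15) and NAP (1.09 ± 0.28) rose and ORS1 (-1.02 ± 0.26) fell (20.0% called). ORE1 had 8.88, 9.30 and 8.31 CPM in ref4-3, against 5.33, 5.88 and 6.02 CPM in ref4-1, and 1.303 ± 0.346 CPM in WT. The call of ORS1 was lost without ref4-3 replicate 1 or ref4-1 replicate 3, and that of NAP without any 1 of 4 libraries, ref4-3 replicates 1 and 2 and ref4-1 replicates 1 and 2. Of 10 tested phosphate starvation genes, the phosphatase PAP17 (0.77 ± 0.085) and the phospholipase PLDP2 (0.86 ± 0.23) rose (20.0% of the list), and SPX1, a phosphate sensor, had 10.7, 8.24 and 9.91 CPM in ref4-3, against 10.2, 8.45 and 10.7 CPM in ref4-1 (log2 fold change 0.001 ± 0.14, adjusted p = 0.997). PAP17 had 34.1, 33.3 and 34.2 CPM in ref4-3, against 20.5, 19.8 and 19.4 CPM in ref4-1 (adjusted p = 5.63e-06), and 10.3 ± 0.622 CPM in WT. PLDP2 lost its call without ref4-3 replicate 3 or ref4-1 replicate 3.

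The chaperone HSP70 rose in ref4-3 but was nearer to WT there, with 18.7, 21.1 and 18.6 CPM in ref4-3, against 10.4, 11.7 and 9.39 CPM in ref4-1 (log2 fold change 0.87 ± 0.14, adjusted p = 0.000577), and 20.2 ± 2.37 CPM in WT. HSP18.2, the other called gene of 11 tested in the heat shock list, was low, with 0.839, 0.571 and 1.297 CPM in ref4-3, against 3.18, 1.63 and 1.06 CPM in ref4-1, and fell (log2 fold change -1.15 ± 0.36, adjusted p = 0.0421). The alleles overlapped, and the call was lost without ref4-3 replicate 1 or 2 or ref4-1 replicate 1. It was also lost with DESeq2, with limma-voom and with the 6 libraries fitted alone. Of 14 endoplasmic reticulum stress genes 1 was called (7.14%, below the 11.1% of all tested genes). It was the disulfide isomerase PDIL1-1, which rose (0.23 ± 0.065, adjusted p = 0.0254), a call lost without ref4-3 replicate 1 or 3 or ref4-1 replicate 2 or 3. BIP3 of the same list was called higher with limma-voom (log2 fold change 0.54, adjusted p = 0.0271) and with the 6 libraries alone (0.53, adjusted p = 0.044). The same held with library totals alone and without ref4-1 replicate 2. None of 11 tested flowering time genes was called by edgeR, DESeq2 or limma-voom, with 2 at an unadjusted p under 0.05, and the repressor FLC was called higher without ref4-1 replicate 2 (log2 fold change 1.23, adjusted p = 0.0216). SVP, a repressor of flowering, had 81.0, 74.6 and 77.2 CPM in ref4-3, against 85.3, 81.7 and 95.0 CPM in ref4-1 (log2 fold change -0.17 ± 0.065, adjusted p = 0.104).

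The mutated gene itself, MED5B (chromosome 2, 19673293 to 19679711), had 30.2, 30.7 and 28.9 CPM in ref4-3, against 27.7, 27.3 and 29.8 CPM in ref4-1 (log2 fold change 0.087 ± 0.089, adjusted p = 0.58), and 24.8 ± 3.61 CPM in WT. Counts of transcripts do not show whether a library carries the point mutation. Its paralog MED5A had 38.5, 34.0 and 36.4 CPM in ref4-3, against 34.5, 35.6 and 30.7 CPM in ref4-1 (log2 fold change 0.10 ± 0.086, adjusted p = 0.475). Of 18 Mediator subunit genes 2 rose (11.1%, equal to the share called among all tested genes): the tail subunit MED15A (log2 fold change 0.30 ± 0.069, adjusted p = 0.00819) and MED12 of the kinase module (log2 fold change 0.31 ± 0.089, adjusted p = 0.0276), and CDK8, the kinase of that module, had 22.5, 21.2 and 22.6 CPM in ref4-3, against 20.1, 17.9 and 16.5 CPM in ref4-1 (log2 fold change 0.28 ± 0.1, adjusted p = 0.0792). MED12 lost its call without any 1 ref4-3 library or without ref4-1 replicate 3. DJC66, a DnaJ-domain chaperone whose high level marks both mutants, had 367, 346 and 348 CPM in ref4-3, against 296, 312 and 402 CPM in ref4-1 (log2 fold change 0.072 ± 0.09, adjusted p = 0.661), and 14.96 ± 1.81 CPM in WT. Its log2 fold change turned to -0.013 (adjusted p = 0.953) without ref4-1 replicate 1 and reached 0.22 (adjusted p = 0.0404) without ref4-1 replicate 3, so no direction can be given.

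The differences were spread over the genome. Between 10.3% and 11.5% of the tested genes of each of the 5 nuclear chromosomes were called. Within 0.5 Mb of MED5B 16 of 111 tested genes were called (14.4%, 8 higher in ref4-3 and 8 lower), between 0.5 and 1 Mb 11 of 123 (8.94%), and between 1 and 2 Mb 27 of 225, beside 11.1% of all tested genes.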

How the data were processed

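Polyadenylated RNA of 15 rosette libraries was sequenced, and the authors deposited 1 table of read counts per gene. Per the submitters' processing notes, Trimmomatic, TopHat2 (version 2.1.0), HTSeq (0.6.1), edgeR and the build TAIR10 were used. Neither the strand setting nor the annotation version is stated in the labels. Here the 5 count rows that name no gene were left out, and a gene was tested where 3 or more of the 15 libraries had over 1 CPM. All 15 libraries were fitted with edgeR (4.0.16, R 4.3.3; TMM factors, quasi-likelihood with a robust estimate of spread, prior count 0.125), and the contrast ref4-3 minus ref4-1 was adjusted by Benjamini-Hochberg over all tested genes with a threshold of 0.05. An SE is the absolute log2 fold change divided by the square root of F. Values per library are TMM-normalised CPM, with means ± SD of 3 libraries. Each sample is a separate pool of rosettes per the labels, and the p-values rest on the spread among such pools.

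The members, gene lists and tests were chosen with earlier results of these data known, and the robust estimate was set to follow an earlier account. The rule for named genes took MED5B, MED5A, CDK8, DJC66, DAA1, QQS and MRD1, the 10 greatest rises and falls among called genes of at least 5 CPM in the higher allele without overlap, and up to 4 called members of each list with the smallest adjusted p. Other list members are named for their role and were chosen with their values seen. The fit was tested on simulated counts. Promoters were read from RefSeq TAIR10.1. Alternatives were DESeq2 (1.42.0), limma-voom (limma 3.58.1), other size factors and filters, the 6 libraries alone, replicate blocks and leaving out each library.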

Additional observations from a re-analysis of the deposited data

How the results depend on the processing

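Over 17 alternatives, of which the fit without the robust estimate of spread (2064 genes called) was added after the data were seen, the count of called genes stayed near 2095 with other size factors, filters or tools (1880 with DESeq2, 2067 with limma-voom, 2108 with RLE size factors). With the 6 libraries alone it was 823, with 376 higher, 447 lower and 115 at least 2-fold apart, and 8 antenna, 4 photosystem and 2 jasmonate-ethylene defence genes were called lower. Scaling by library totals alone gave 1885 higher and 716 lower. It also turned the list medians of gibberellin and brassinosteroid genes to 0.03 and of flowering time genes to 0.01. The replicate numbers were not treated as pairs in the reported fit, since no label says that they mark a shared tray or day. The deviations of same-numbered libraries correlated at -0.189, 0.18 and 0.0786, and those of differently numbered ones at -0.258 to 0.199. So few correlations cannot show whether a tray or day was shared. The replicate block gave 2271 calls over 15 libraries, and 792 over 6, with 349 higher, 443 lower, 123 at least 2-fold apart, and 7 antenna, 1 photosystem and 2 jasmonate-ethylene defence genes lower. With each library left out in turn, 1040 to 2061 genes were called, 479 to 856 higher and 561 to 1205 lower, the fewest without ref4-3 replicate 3, and higher calls were 586 without ref4-3 replicate 2. Abscisic acid signalling genes called lower ranged from 3 to 5 and photosystem genes called lower from 7 to 18. DJC66 ranged from -0.013 without ref4-1 replicate 1 to 0.22 without ref4-1 replicate 3. The cause of these changes was not tested, beyond the smaller number of libraries. Of 137 named genes, 133 of them called, 86 were on the same side of the threshold with the 6 libraries alone and 108 to 137 under the other settings over more libraries. Depth limits genes near 1 CPM, where 1 count is worth 0.0595 to 0.104 CPM.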

Other observations

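Among families that stand in none of the lists above, ribosomal protein and core histone genes had many members called lower in ref4-3 than in ref4-1, although most members did not pass the test. Families were grouped by the words of the annotated product and chosen after their values were seen, so no test was made of a group. Of 365 tested genes annotated as ribosomal proteins 117 were called lower and 1 higher, or 32.3%, beside 11.1% of all tested genes, and their median log2 fold change was -0.18. The number called lower was 58 with library totals alone, 30 with the 6 libraries alone, 71 without ref4-3 replicate 2, 45 without ref4-3 replicate 3 and 49 without ref4-1 replicate 3. Of 42 core histone genes 16 were called lower and none higher (median -0.25). That number was 9 with library totals alone, 7 with the 6 libraries alone, 6 without ref4-1 replicate 3, 5 without ref4-3 replicate 3 and 8 without ref4-3 replicate 2. Several histone and ribosomal protein genes are near-identical to one another, so single members are uncertain.

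Proteins annotated as lipid transfer or albumin family had 12 of 54 tested genes called higher and 4 lower (29.6% called, beside 11.1% of all tested genes). Those called lower were 1 without ref4-3 replicate 2 and 2 without any 1 of ref4-3 replicates 1 and 3 and ref4-1 replicates 1 and 3. Of 42 SAUR genes, small growth-linked genes of the auxin response, 6 were called lower and none higher (median -0.34). That was 14.3%, beside 6.41% of all tested genes called lower. The number called lower was 3 without ref4-3 replicate 2 and 2 with the 6 libraries alone. Of the pentatricopeptide repeat proteins of organelle RNA processing 4 of 257 were called (1.56%, below the 11.1% of all tested genes). There were 8 called under library totals alone and 2 without ref4-3 replicate 2 or 3. Of the disease resistance genes of the NBS-LRR kind 3 of 135 were called higher and 3 lower (4.44%, also below 11.1%). There were 12 higher and 3 lower with library totals alone, 8 and 1 without ref4-3 replicate 2, and 6 and 4 without ref4-1 replicate 2. The share called among these genes thus depends on the scaling and on single libraries. Of the 33601 genes in the count table, AT1G71920 was the only one with no count in ref4-3 and at least 30 counts in ref4-1. No gene showed the reverse.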
